A study of Solanum lycopersicum and Solanum tuberosum and Capsicum annuum and Nicotiana tabacum with 10 samples.

Results

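Leaf RNA of pepper was set against leaf RNA of potato on 2 of the 10 potato cDNA arrays of the series, and every clone with a value on both pepper arrays was used. These were 9051 clones of 15360 on the slide. Pepper and potato belong to one plant family, the Solanaceae, whose species share most of their genes, and a potato cDNA probe binds the matching pepper transcript in a heterologous hybridization. Mature leaves carry out photosynthesis, carbon and amino acid metabolism, protection from oxidation, and defence, and genes of these processes are described here beside transcription factors, membrane transport, signalling and proteases.

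Each array compared potato leaf RNA with leaf RNA of 1 query species, which was pepper, tomato, tobacco, N. benthamiana or petunia, with 2 arrays per species. All plants were untreated and grown at 25°C with 16 h of light, and mature leaves were taken from plants of 4 to 6 weeks. Neither the cultivars nor a pooling of plants was given in the labels. All replicate 1 arrays shared 1 potato extract and all replicate 2 arrays another, with the query species in Cy3, potato in Cy5 and no exchange of dyes. The labels did not tell whether both pepper extracts were taken from different plants. The p-values therefore cover the spread between these samples alone, and that spread may be technical.

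The value of a clone was the log2 ratio of the channels, averaged over its duplicate spots. A ratio of 1 on this scale is a 2-fold difference in signal. The direction of the ratio was not stated. The values are minus the log2 of a channel ratio rounded to 2 decimals, and which channel stood on top of that ratio was not given either. Positive values were taken as likely higher in potato, because the array titles name potato first and because the long tail of ratios lay on the positive side, where probes that bind another species less well would fall. Signs below rest on that reading. Each ratio came from 1 dye orientation on potato probes, so a dye effect, weaker binding of pepper cDNA and a lower transcript level in pepper cannot be told apart. In whole leaf RNA, fewer cells of a type and less RNA per cell cannot be told apart either.

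Pepper replicate 1 gave a value for 60.4% of the clones and replicate 2 for 65.8%. Duplicate spots of a clone correlated at 0.951 and 0.973, and the median log2 ratio was -0.02 and -0.04. The pepper arrays correlated at 0.89 over the clones (clones are no replicates), and their ratios differed by a median of 0.30. The sign was the same on both arrays for 84.7% of the clones. In 25 clones every one of the 8 arrays of the other species had a value and neither pepper array did. The same count was 5 for tomato, 6 for tobacco, 4 for N. benthamiana and 11 for petunia. Pepper replicate 1 had the lowest coverage of all arrays, and those of the other species gave a value for 61.4% to 68.0% of the clones. How far coverage entered these counts was not tested.

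Pepper and potato leaf differed in 5086 of 9051 clones, or 56.2%, at an adjusted p under 0.05 in limma. Of all clones, 27.4% were called positive (2480 clones) and 28.8% negative (2606 clones), and 73.8% lay within 2-fold. Larger ratios lay mostly on the positive side, which was itself a reason for reading positive as potato and so is no separate result about potato. Beyond 2-fold, 1342 called clones were positive and 1005 negative, beyond 4-fold 414 and 113, and beyond 8-fold 130 and 9. The smallest ratio called was 0.34 in size and the median standard error (SE) was 0.18. With replicate 1 left out, 3700 clones were called, and with replicate 2 left out 3193.

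**Figure D1:**
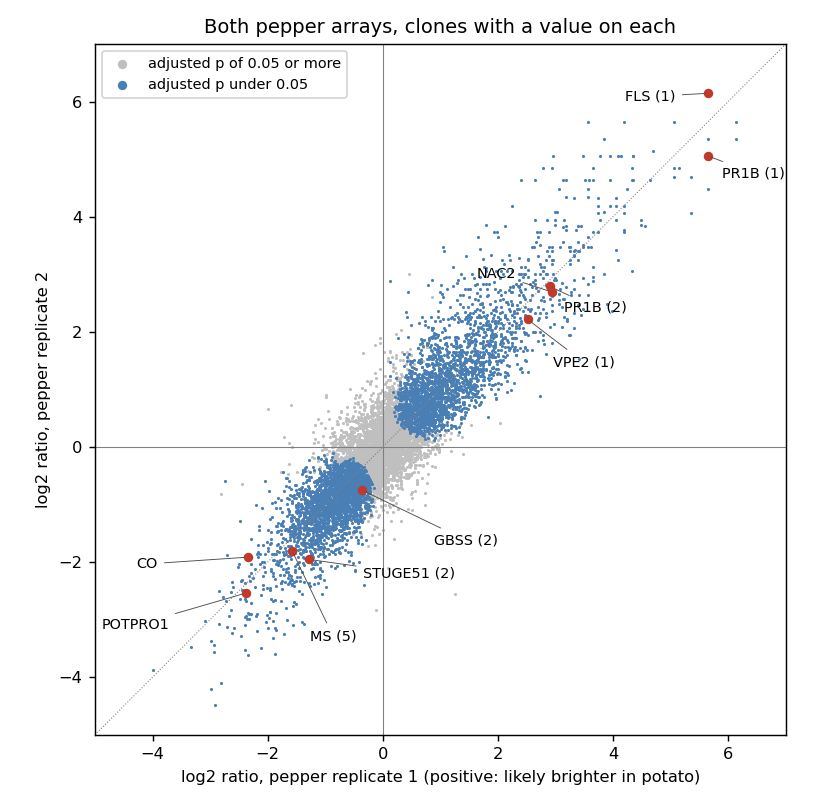
Each point is a clone, with its log2 ratio on pepper replicate 1 on the x axis and on pepper replicate 2 on the y axis, blue where the adjusted p was under 0.05 and grey elsewhere; the dotted line marks equal values. Red points are clones named in the text, with the number of the clone where a gene has several; FLS (1), PR1B (1), NAC2 and VPE2 (1) lie at the potato end and POTPRO1 and CO at the pepper end.

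Of the clones, 815 carried a single gene symbol, for 430 potato genes. On the pepper arrays 730 of these were tested, 49 had a value on only 1 array and 36 on neither. Of the 730, 306 were positive, 163 negative and 261 not called, beside 27.4% positive and 28.8% negative over all clones. Their median log2 ratio was 0.26, beside -0.04 over all clones. Most, 590 clones of 319 genes, had only a locus name, and 263 of these were positive and 118 negative. The 140 clones of 83 genes with a symbol of their own were divided evenly, with 43 positive, 45 negative and 52 not called, beside the same shares over all clones.

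Of the genes with their own symbol, 64 were placed in 14 groups by role, with 117 clones, of which 101 were tested. In all groups together 30 clones were positive, 34 negative and 37 not called, beside 27.4% positive and 28.8% negative over all clones. Glycolysis, transcription factors, defence, proteases and cell wall, amino acid metabolism, photosynthesis and phenolic compounds had medians on the potato side. Pumps and channels and the mitochondrial group had medians within 0.05 of 0. The ascorbate enzymes, oxylipins and hormones, signalling, starch and sugar and the methionine cycle had medians on the pepper side. Amino acid metabolism had 1 tested clone, and proteases and cell wall had 2 clones of VPE2, called in opposite directions. In photosynthesis 4 clones were positive and 3 negative. A median thus describes the few probes of its group and not the process. In the following, clones of a gene are numbered, and since a cDNA probe can also bind transcripts of close relatives of its gene, each value belongs to the probe.

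**Figure D2:**
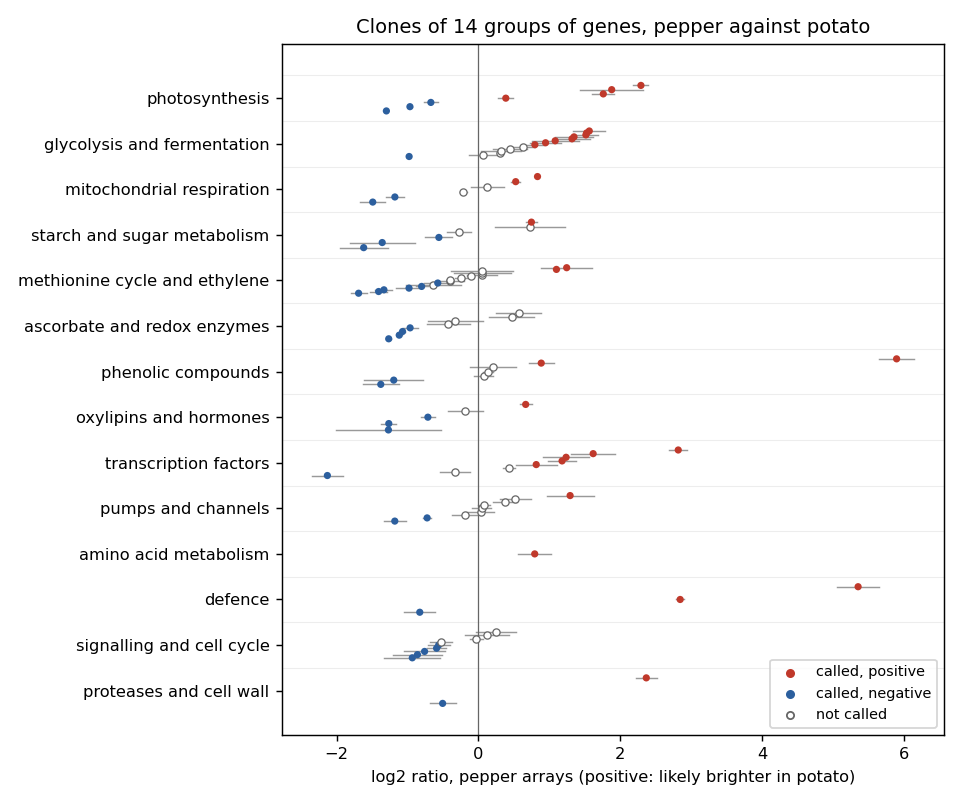
Every tested clone of the 14 groups is shown by its mean log2 ratio (point, x axis) and the values of both pepper arrays (ends of the grey line), with groups on the y axis. Red and blue points were called positive and negative, open points were not called; the ascorbate and redox enzymes and the signalling and cell cycle group hold no red point, and the points near 6 and above 5 are FLS (1) and PR1B (1).

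Photosynthesis genes, the leaf markers on this slide, were called in all 7 tested clones but in both directions (4 positive, 3 negative, median 0.39), beside 56.2% called over all clones. Probes of PSBR, a subunit of photosystem II, lay on the potato side. PSBR clone 2 had log2 ratios of 2.40 and 2.19 on replicates 1 and 2, a mean of 2.29 (SE 0.17, adjusted p = 5.16e-05 in limma). PSBR clone 5 followed at 1.92 and 1.60, and clone 1 at 2.32 and 1.43. Clone 3, at 0.49 and 0.28, was far smaller, and its call ended without replicate 1 (adjusted p = 0.294), without replicate 2 (adjusted p = 0.0929) and with the replicate block as a random term (adjusted p = 0.0543). The remaining PSBR clones had a value on 1 pepper array or none. Transketolase (TK), an enzyme of the Calvin cycle and of the pentose phosphate pathway, was lower than 0 in both clones, at -0.77 and -0.57 for clone 1 and at -1.28 and -1.32 for clone 2. Clone 1 lost its call without replicate 1 (adjusted p = 0.0847) and clone 2 without replicate 2 (adjusted p = 0.0563). THF1, a protein of thylakoid formation, had -0.99 and -0.94, a mean of -0.97 (SE 0.16, adjusted p = 0.00084). The tuber list matched GBSS alone, given below, and the flower and pollen list matched no clone. Only ratios were analysed, so the level of these markers in pepper was not tested.

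Of the 14 clones of glycolysis and fermentation, 8 were positive, 1 negative and 5 not called (median 0.87), beside 27.4% positive over all clones. The positive ones were 7 clones of GAPDH and 1 of PK, so that 2 of the 6 genes had a positive call. GAPDH, the glycolytic dehydrogenase of glyceraldehyde 3-phosphate, was represented by 8 clones, whose mean ratios ran from 0.63 to 1.56. Clone 3 had the highest, with 1.79 and 1.34 on the 2 arrays, a mean of 1.56 (SE 0.19, adjusted p = 0.000411). In all 8 clones the ratio of replicate 1 was above that of replicate 2, and both were above 0. Of these clones, 7 were called and clone 4, at 0.80 and 0.46, was not (adjusted p = 0.0667, and 0.0257 with the replicate block as a random term). Clones 6 and 7 lost their calls without replicate 1, with adjusted p of 0.056 and 0.0997. Pyruvate kinase (PK), which makes pyruvate and ATP in the last step of glycolysis, stood at 1.51 and 1.54, a mean of 1.52 (SE 0.14, adjusted p = 4.35e-05). Phosphoglycerate mutase (PGAM), an enzyme between these steps, was smaller, at 0.26 and 0.33 in clone 1 and 0.20 and 0.69 in clone 2, and neither was called (adjusted p = 0.0772 and 0.0812, and 0.0467 for clone 2 with the replicate block as a random term). HXKRP1, named for its relation to hexokinase, was the only clone of the group called on the pepper side, at -0.97 and -0.99 (mean -0.98, SE 0.13, adjusted p = 0.000341). Lactate dehydrogenase (LDH-2) was not called at 0.60 and 0.03.

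In the mitochondrial group 2 of 6 clones were positive, 2 negative and 2 not called (median -0.04), a share of calls near the 56.2% over all clones. The alternative oxidase AOX, which passes electrons to oxygen without pumping protons, lay on the pepper side at -1.31 and -1.05 (mean -1.18, SE 0.21, adjusted p = 0.00129). LPD2, a lipoamide dehydrogenase, did so at -1.31 and -1.67 (mean -1.49, SE 0.21, adjusted p = 0.00039). The probes of PDHE1-A, the E1 alpha subunit of pyruvate dehydrogenase, differed from each other. Clone 2 had 0.83 on both arrays (SE 0.17, adjusted p = 0.00248), whereas clone 1 was not called at -0.27 and -0.16. TOM20, a receptor for protein import at the outer membrane, was positive at 0.59 and 0.46, but not without replicate 1 (adjusted p = 0.11) or replicate 2 (adjusted p = 0.0617).

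Starch and sugar genes were called in 4 of 6 clones, 1 positive and 3 negative (median -0.42), a share near the 56.2% over all clones. STUGE51, a UDP-glucose epimerase that interconverts UDP-glucose and UDP-galactose, was clearly on the pepper side in both of its clones. Clone 2 had -1.28 and -1.95, a mean of -1.62 (SE 0.21, adjusted p = 0.000273), and clone 1 had -0.90 and -1.81, a mean of -1.36 (SE 0.27, adjusted p = 0.00241). The call of clone 1 ended without replicate 2 (adjusted p = 0.0675). The second epimerase gene, STUGE45, was not called at -0.11 and -0.44. GBSS, the starch synthase bound to starch granules, which makes amylose, had 1 of its 2 clones tested. Clone 2 was slightly on the pepper side, at -0.37 and -0.75 (mean -0.56, SE 0.19, adjusted p = 0.0294). That call ended without replicate 1 (adjusted p = 0.0506) and without replicate 2 (adjusted p = 0.304). AMYA1, an alpha-amylase that degrades starch, was positive at 0.67 and 0.83 (mean 0.75, SE 0.15, adjusted p = 0.00239). The acid invertase PAIN-1 had 0.24 and 1.22 on the 2 arrays and was not called (adjusted p = 0.217).

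The methionine cycle supplies methyl groups and the precursor of ethylene, and its genes were the most densely represented, with 16 tested clones, of which 2 were positive, 6 negative and 8 not called (median -0.40), beside 27.4% positive and 28.8% negative over all clones. All 5 clones of methionine synthase (MS), which methylates homocysteine to methionine, were called on the pepper side, with means from -1.69 to -0.80. Clone 5 was at -1.58 and -1.80, a mean of -1.69 (SE 0.16, adjusted p = 4.13e-05). On both arrays every MS clone was below 0, and replicate 2 was the lower in each. S-adenosylmethionine synthetase (METK1) uses that methionine, and its 9 clones were near 0, from -0.64 to 0.06, with 1 called. That was clone 7, at -0.77 and -0.37 (mean -0.57, SE 0.20, adjusted p = 0.0364), and its call ended without replicate 1 (adjusted p = 0.319) and without replicate 2 (adjusted p = 0.0669). The most negative, clone 1 at -1.02 and -0.25, was not called (adjusted p = 0.113, and 0.0361 with the replicate block as a random term). ARD, the acireductone dioxygenase that salvages methionine after ethylene synthesis, lay on the potato side at 1.60 and 0.89 (mean 1.24, SE 0.20, adjusted p = 0.000757). The ethylene receptor ERS did as well, at 1.06 and 1.14 (mean 1.10, SE 0.15, adjusted p = 0.000383).

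Among the ascorbate and redox enzymes none of 8 clones was positive and 4 were negative (median -0.69), beside 27.4% and 28.8% over all clones, and the share called was near the overall 56.2%. DHAR2, a dehydroascorbate reductase that regenerates ascorbate, had -1.03 and -1.11 in clone 1 (mean -1.07, SE 0.15, adjusted p = 0.000436) and -0.86 and -1.07 in clone 2 (mean -0.96, SE 0.15, adjusted p = 0.000754). The glutaredoxin GRX2, which reduces disulphides with glutathione, had -1.23 and -1.30 (mean -1.26, SE 0.14, adjusted p = 9.26e-05). Catalase (CAT1), which breaks down hydrogen peroxide, gave values on both sides of 0 by probe. Clone 1 was at -1.15 and -1.08 (mean -1.12, SE 0.15, adjusted p = 0.000257), and clones 2 and 3 were not called at 0.15 and 0.79 and at 0.24 and 0.89. The related gene DHAR was not called in clone 1, at -0.12 and -0.73.

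In phenolic metabolism the probes of a single gene lay on both sides of 0 and 7.27 log2 units apart. Flavonol synthase (FLS), which makes flavonols from dihydroflavonols, had the largest ratio of a clone with its own symbol in clone 1, at 5.64 and 6.14 (mean 5.89, SE 0.27, adjusted p = 8.18e-06). Values this large come in coarse steps, since each is minus the log2 of a small ratio rounded to 2 decimals, and a step of 0.01 in that ratio moves the value by up to 1 log2 unit. The other FLS clones were not on that side. Clone 2 had -1.63 and -1.12 (mean -1.38, SE 0.35, adjusted p = 0.00936), clone 4 had -0.78 and -1.61 (mean -1.19, SE 0.38, adjusted p = 0.0234), and clone 3 was not called at 0.07 and 0.21. The call of clone 2 ended without replicate 1 (adjusted p = 0.113) and that of clone 4 without replicate 2 (adjusted p = 0.279). SHKA, the first enzyme of the shikimate pathway, which feeds phenolic synthesis, was positive at 1.06 and 0.71 (mean 0.89, SE 0.27, adjusted p = 0.0214), but not without replicate 1 (adjusted p = 0.183) or replicate 2 (adjusted p = 0.0726). Polyphenol oxidase (PPO), which oxidises phenolics to brown quinones, had 0.21 and -0.06 in clone 1 and 0.53 and -0.12 in clone 2, with opposite signs on the arrays and no call. Over the group 2 of 7 clones were positive and 2 negative, with a median of 0.14 and a share of calls near the overall 56.2%.

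The defence genes included one of the largest ratios. PR1B, a pathogenesis-related protein induced on infection, was at 5.64 and 5.06 in clone 1 (mean 5.35, SE 0.21, adjusted p = 1.27e-05) and at 2.90 and 2.79 in clone 2 (mean 2.84, SE 0.20, adjusted p = 1.13e-05). Both probes were positive on both arrays, though 2.51 log2 units apart. HRBP1, named for binding the bacterial elicitor harpin, was negative at -0.61 and -1.05 (mean -0.83, SE 0.17, adjusted p = 0.00262), but not without replicate 2 (adjusted p = 0.0667). In the oxylipin and hormone group 1 of 5 clones was positive and 3 negative (median -0.71), beside 27.4% and 28.8% over all clones. The lipoxygenase POTLX-3, which oxidises fatty acids at the start of the oxylipin pathway, was at 0.58 and 0.75, and its call ended without replicate 1 (adjusted p = 0.0693) and without replicate 2 (adjusted p = 0.155). Hydroperoxide lyase (HPL), which splits the products of lipoxygenases into green leaf volatiles, was on the pepper side in clone 2 at -1.37 and -1.16 (mean -1.26, SE 0.14, adjusted p = 0.000181). HPL clone 1, at -0.53 and -2.01, had its call only with replicate 2 included (adjusted p = 0.269 without it). IAA2, a repressor of auxin-responsive genes, was at -0.62 and -0.81 (adjusted p = 0.003, and 0.0554 without replicate 2).

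Of the 8 clones of transcription factors, 5 were positive, 1 negative and 2 not called (median 0.997), beside 27.4% positive and 28.8% negative over all clones. The NAC-domain factor NAC2 led with 2.94 and 2.69 (mean 2.82, SE 0.24, adjusted p = 2.54e-05). BEL5, a homeodomain factor whose mobile RNA promotes tubers in potato, was positive in both clones, at 0.92 and 1.56 and at 1.93 and 1.31. The WRKY factor STWRKY8 was positive in clone 2 at 0.98 and 1.38 (mean 1.18, SE 0.26, adjusted p = 0.0045, and 0.0784 without replicate 2) and not called in clone 1 at 0.35 and 0.52. MADS16, a MADS-box factor, was positive in clone 2 at 1.10 and 0.52, but not without replicate 1 (adjusted p = 0.289) or replicate 2 (adjusted p = 0.0553), and was not called in clone 1 at -0.11 and -0.54. CO, the CONSTANS factor of day-length sensing, was the exception at -2.34 and -1.91 (mean -2.13, SE 0.32, adjusted p = 0.000534).

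Pumps and channels of the membranes were called in 3 of 9 clones, 1 positive and 2 negative (median 0.04), beside 56.2% called over all clones. The aquaporin XIP1-1-BETA, a membrane channel, lay on the pepper side at -1.33 and -1.02 (mean -1.18, SE 0.16, adjusted p = 0.000412). The plasma membrane proton pump PHA2 was positive in clone 4 at 0.96 and 1.62 (mean 1.29, SE 0.19, adjusted p = 0.000527), and its clones 1 and 3 were not called at 0.20 and 0.54 and at 0.30 and 0.74. The related pump PHA1 was at -0.78 and -0.67 (adjusted p = 0.0405), a call that ended without replicate 1 (adjusted p = 0.199) and without replicate 2 (adjusted p = 0.157). The potassium channel SKT3 was not called at -0.37 and -0.01. Signalling and cell cycle genes held no positive clone, 5 negative and 4 not called (median -0.56), beside 27.4% positive and 28.8% negative over all clones. The 5 negative clones had ratios between -0.93 and -0.56. They were clone 2 of the 14-3-3 protein gene 16R, at -0.54 and -1.33, the calcium-dependent kinase CDPK2 at -0.47 and -1.04, the D-type cyclins CYCD3.2 at -0.52 and -1.20 and CYCD3.3 at -0.46 and -0.72, and the Ran GTPase activating protein RANGAP1 at -0.40 and -0.72. Replicate 2 was the lower array in each, and without it none of the 5 was called (adjusted p = 0.0783, 0.36, 0.272, 0.189 and 0.26 in that order). Without replicate 1, CDPK2 (adjusted p = 0.0576), CYCD3.3 (adjusted p = 0.0515) and RANGAP1 (adjusted p = 0.0572) were not called. Clone 3 of 16R was not called at -0.68 and -0.37.

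A few genes stood outside these groups or formed small ones. VPE2, a vacuolar processing enzyme that matures vacuolar proteins, was positive in clone 1 at 2.51 and 2.22 (mean 2.37, SE 0.22, adjusted p = 4.75e-05) and slightly negative in clone 2 at -0.69 and -0.32. The call of clone 2 ended without replicate 1 (adjusted p = 0.305) and without replicate 2 (adjusted p = 0.0555). BCAT1, an aminotransferase of branched-chain amino acids, was positive at 1.03 and 0.56 (mean 0.79, SE 0.18, adjusted p = 0.00549, and 0.104 without replicate 1). RGGA, whose Arabidopsis namesake is an RNA-binding protein with RGG repeats, was negative in clone 3 at -1.10 and -1.11 (mean -1.11, SE 0.14, adjusted p = 0.000229) and in clone 1 at -0.40 and -0.79 (adjusted p = 0.0102, and 0.178 without replicate 2). Its clones 2 and 4 were not called, at -0.01 and -0.17 and at 0.33 and 0.21. The clones of SI1 and SRE1A were all positive, 3 for each gene, with means from 1.502 to 2.12 and from 1.45 to 2.02, and SRE1A clone 1 was not called without replicate 2 (adjusted p = 0.177). Both clones of R1 were negative, with means of -1.58 and -1.45.

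Among clones with a single symbol, the largest ratios in either direction, with 1 clone per gene, came mostly from genes known by locus name alone. Clones without a single symbol, which are not named here, held most of the ratios beyond 8-fold, since clones with one made up 13 of the 130 called positive and 2 of the 9 called negative. On the potato side LOC102577893 clone 4 had 6.14 and 5.64, LOC102580877 had 4.06 and 4.32, and LOC102577835 clone 1 had 4.19 and 4.06. With them, FLS, PR1B and NAC2, the 15 largest also held LOC102601908, LOC102589404, LOC102577652, LOC102594176, LOC102589596, LOC102582373, LOC102590998, LOC102585585 and LOC102587499, with means from 2.86 to 3.38. Other clones of these genes did not always follow. LOC102582373 had 2 clones called positive and 1 negative, LOC102589596 had 2 positive and 1 not called, and LOC102587499 had 8 positive and 1 not called. All tested clones of LOC102601908 (2) and LOC102594176 (4) were called positive. On the pepper side LOC102598951 had -2.98 and -4.21, LOC102577499 had -3.08 and -3.02, and LOC102596978 clone 3 had -2.85 and -3.07. POTPRO1, at -2.38 and -2.54 (mean -2.46, SE 0.20, adjusted p = 3.79e-05), and CO were the named symbols among the 15 most negative. The remaining 10, LOC102596966, LOC102587659, LOC102591911, LOC102602939, LOC102577434, LOC102577684, LOC102585195, LOC102577659, LOC102589911 and LOC102596122, had means from -2.67 to -2.00. The positive ratios thus reached further from 0 than the negative ones, a property already used to read positive as potato. The call of LOC102587659 ended without replicate 2 (adjusted p = 0.0759).

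Clones of one gene gave a measure of how far a value depended on its probe. Of 169 genes with 2 or more tested clones, 75 had every clone called in 1 direction (52 positive, 23 negative), 10 had called clones in both directions and 28 had none called. Their clones ranged over a median of 0.45 log2 units. In 38 genes the range was over 1 and in 12 over 2. It was 7.27 in FLS, the only one of these genes with a positive clone above 5 beside negative ones, and 0.93 across the 8 clones of GAPDH. Whether probes of one symbol differ in the transcripts they bind was not tested.

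**Figure D3:**
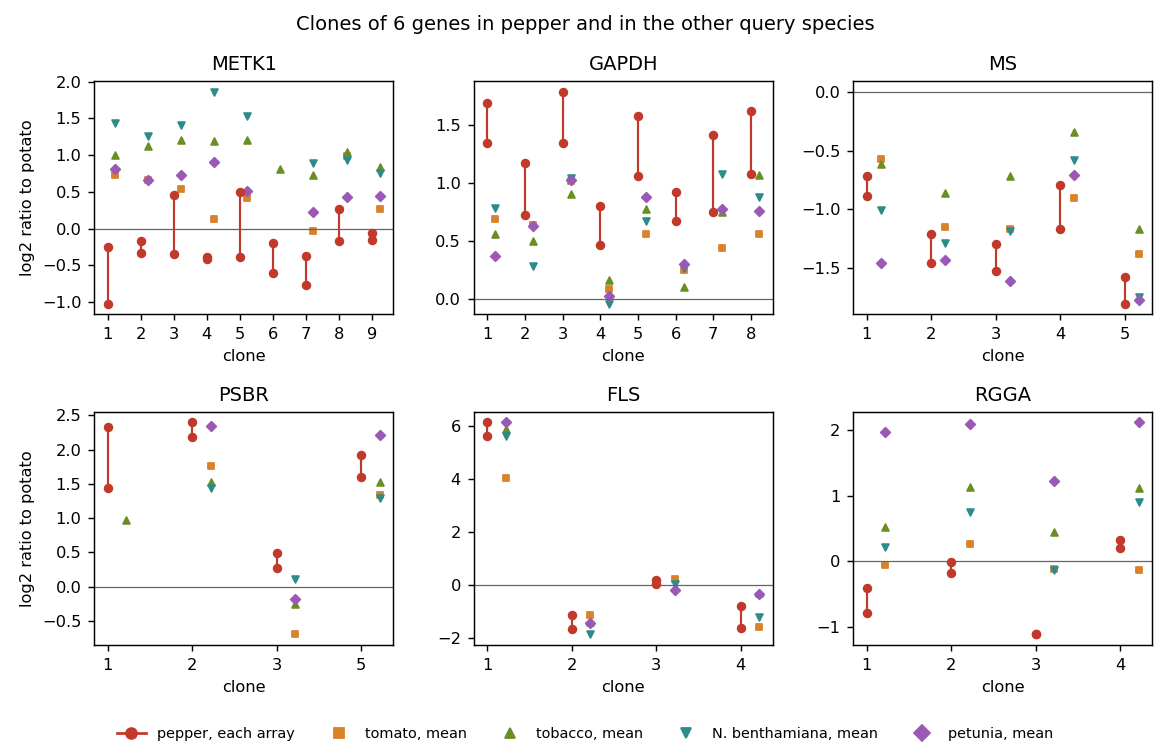
Log2 ratios to potato (y axis) are shown for the tested clones (x axis) of 6 genes, with both pepper arrays as joined red points and the means of the other query species as other symbols, where they had a value. METK1 clones lie lower in pepper than in most other species, and 5 of 8 were called lower. GAPDH clones lie higher, but only 1 of 8 was called higher. MS clones are negative in all species, and FLS clone 1 lies near 6 in pepper while its other clones lie near or below 0.

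To find where pepper stood apart from the other query species, its log2 ratio was compared with the mean of tomato, tobacco, N. benthamiana and petunia. In that difference the dyes cancel, and so do the potato extracts where every array had a value. Where an array had none, the 2 potato extracts entered unevenly. How well each species binds a probe does not cancel. Of 8854 clones, 1469 differed at an adjusted p under 0.05 in limma, or 16.6%, with 6.89% higher in pepper (610 clones) and 9.70% lower (859 clones). With the potato extract as a replicate block 2804 clones differed, or 31.7%, and these held all 1469. Without pepper replicate 1, 412 clones differed, and without pepper replicate 2, 578. Among clones with a single symbol 171 of 711 differed, 67 higher and 104 lower. A higher ratio in pepper likely means less signal there, relative to potato, than in the other species.

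Among clones with a single symbol, STUGE51 stood furthest apart. The mean ratios of clone 2 were 2.06 in tomato, 1.93 in tobacco, 1.16 in petunia and 2.28 in N. benthamiana, against -1.28 and -1.95 on the pepper arrays. The difference was -3.48 (SE 0.24, adjusted p = 0.00025), and in clone 1 it was -3.28 (SE 0.30, adjusted p = 0.000438). Thus the epimerase probes were positive in every other species and negative on both pepper arrays. In all, 111 clones had a called pepper ratio, a called difference and the opposite sign in every other species, and 9 of them had a single symbol. These 9 were both STUGE51 clones, LOC102577646, LOC102595372, LOC102583272, LOC102593129, LOC102605062, LOC102577790 and LOC102579649, with 1 clone each of the loci, and they were singled out after their values were seen.

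GBSS clone 2, the only tested clone of its 2, showed the largest difference on the other side, again among clones with a single symbol. Its ratios were -2.32 in tomato, -3.70 in tobacco, -3.15 in petunia and -2.14 in N. benthamiana but -0.37 and -0.75 in pepper, a difference of 2.27 (SE 0.21, adjusted p = 0.000438). Both pepper values were thus above those of every other species mean. The next were LOC102580877 (1.95), LOC102584296 (1.89), LOC102577637 (1.88), LOC102596607 (1.70), LOC102606132 (1.70), LOC102582373 (1.69) and LOC102589404 (1.61). After STUGE51 the most negative differences were LOC102577576 (-2.50), POTPRO1 (-2.47), LOC102596978 (-2.36), LOC102577499 (-2.31), LOC102598951 (-2.19), LOC102596122 (-1.73) and LOC102587567 (-1.72). Of these, LOC102580877, LOC102596122 and LOC102598951 lost their calls without either pepper array, with adjusted p of 0.063, 0.0543 and 0.0501 without replicate 1 and 0.0795, 0.0888 and 0.18 without replicate 2, and LOC102589404 lost its call without replicate 1 (adjusted p = 0.0735). LOC102606132 and LOC102587567 were not called against potato, at 0.19 and 0.23 and at -0.35 and -0.43.

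**Figure D4:**
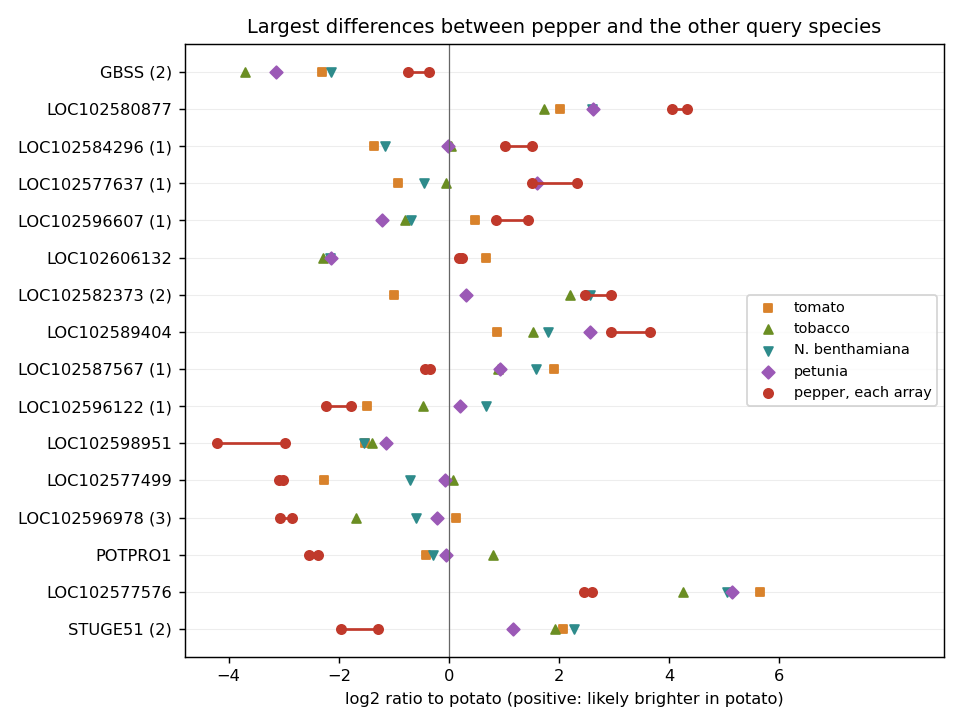
The 8 largest differences in each direction between pepper and the mean of the other query species, among clones with a single symbol, are shown with the log2 ratio to potato on the x axis and 1 gene per line, with the number of the clone where a gene has several. Red points are the pepper arrays and other symbols are means of 2 arrays, or of 1 where 1 had a value; the STUGE51 (2) points of pepper lie below 0 and those of the other species above it, and GBSS (2) lies nearer to 0 in pepper than elsewhere.

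In the methionine cycle 5 of 8 METK1 clones with a value in every species were lower in pepper, beside 9.70% lower over all clones. With the replicate block all 8 were lower, beside 31.7% called in either direction over all clones, and 47.0% of those calls were higher. METK1 clone 4 had -0.41 and -0.38 on the pepper arrays against 0.13 in tomato, 1.19 in tobacco, 0.90 in petunia and 1.86 in N. benthamiana, a difference of -1.42 (SE 0.20, adjusted p = 0.00247). Clones 1, 2, 7 and 9 differed by -1.63, -1.17, -1.02 and -0.68, and without pepper replicate 1 their adjusted p was 0.177, 0.0891, 0.173 and 0.112. Without pepper replicate 2, those of clones 2, 7 and 9 were 0.0521, 0.0509 and 0.0623. None of the 5 MS clones was called against the other species, with differences from -0.35 to 0.11 and SE up to 0.21. ARD was higher in pepper by 1.44 (SE 0.22, adjusted p = 0.0035), but not without pepper replicate 1 (adjusted p = 0.0501).

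With the replicate block 6 of the 8 GAPDH clones were higher in pepper than in the other species, beside 1317 of 8854 over all clones. Without the block 1 was higher, beside 6.89% over all clones. That was clone 1, at 1.69 and 1.34 in pepper against 0.69, 0.56, 0.79 and 0.37 in tomato, tobacco, N. benthamiana and petunia, a difference of 0.91 (SE 0.18, adjusted p = 0.016), which was not called without pepper replicate 1 (adjusted p = 0.146). Glycolysis and fermentation had 1 clone of 14 higher, a share near the 6.89% over all clones, and none lower, beside 9.70%. With the block 7 were higher and none lower, beside 1317 of 8854 clones higher and 31.7% called in either direction over all clones. In photosynthesis THF1 was lower in pepper by -1.08 (SE 0.18, adjusted p = 0.00449), with a tomato ratio of -1.36 below the pepper values and ratios above 0 in the other species. Its call ended without pepper replicate 1 (adjusted p = 0.051). PSBR clone 3 was higher by 0.64 (SE 0.16, adjusted p = 0.0232), which was not called without pepper replicate 1 (adjusted p = 0.214), without pepper replicate 2 (adjusted p = 0.0774), without tomato replicate 1 (adjusted p = 0.0516) or with tomato left out of the mean (adjusted p = 0.0628).

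Both DHAR2 clones were lower in pepper than in the other species, by -1.62 (SE 0.17, adjusted p = 0.000731) and -1.42 (SE 0.17, adjusted p = 0.00112). Clone 1 had -1.03 and -1.11 in pepper against -0.10 in tomato, 0.79 in tobacco, 0.86 in petunia and 0.65 in N. benthamiana, so that the pepper arrays lay below every other species mean. RGGA was lower in 3 of its 4 clones, by -1.26, -1.15 and -1.46 in clones 1, 2 and 3, and in all 4 with the replicate block. Over all clones 9.70% were lower. With the block 31.7% were called in either direction, and 47.0% of those calls were higher. CO was lower by -1.43 (SE 0.35, adjusted p = 0.0251), with 0.49 in tomato and -1.55, -1.23 and -0.52 in tobacco, N. benthamiana and petunia. Its call ended without pepper replicate 1 (adjusted p = 0.211), without pepper replicate 2 (adjusted p = 0.0835) and with tomato left out of the mean (adjusted p = 0.0815). XIP1-1-BETA was lower by -0.94 (SE 0.18, adjusted p = 0.0102, and 0.115 without pepper replicate 1), with -1.49 in tomato and values from 0.14 to 0.20 in the rest.

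VPE2 clone 1 was higher in pepper by 1.42 (SE 0.25, adjusted p = 0.00566, and 0.0735 without pepper replicate 1), at 2.51 and 2.22 against 1.43, 0.78, 0.88 and 0.68 in tomato, tobacco, N. benthamiana and petunia. Both STWRKY8 clones were lower, by -1.06 (adjusted p = 0.0162) and -1.02 (adjusted p = 0.0426), beside 9.70% lower over all clones. Without pepper replicate 1 their adjusted p was 0.144 and 0.299, without pepper replicate 2 it was 0.0781 and 0.108, and with 1 array of another species left out that of clone 2 was as high as 0.0786. Smaller differences rested on single arrays or species. AMYA1 clone 1 was higher by 0.69 (adjusted p = 0.0209), PPO clone 1 by 0.99 (adjusted p = 0.0182) and BCAT1 by 0.84 (adjusted p = 0.0227), and TOM20 was lower by -0.66 (adjusted p = 0.0223). Without pepper replicate 1 none of these was called (adjusted p = 0.098, 0.173, 0.244 and 0.113 in that order). Without pepper replicate 2 the calls of AMYA1 (adjusted p = 0.15), PPO (adjusted p = 0.0718) and TOM20 (adjusted p = 0.149) ended, and without tomato replicate 2 those of BCAT1 (adjusted p = 0.0512) and TOM20 (adjusted p = 0.0515). With N. benthamiana left out of the mean, AMYA1 fell to 0.37 (adjusted p = 0.185) and BCAT1 (adjusted p = 0.0667), TOM20 (adjusted p = 0.0603) and STWRKY8 clone 2 (adjusted p = 0.0676) were not called. With tomato left out PPO fell to 0.54 (adjusted p = 0.143) and STWRKY8 clone 1 was not called (adjusted p = 0.0523), and with petunia left out BCAT1 was not called (adjusted p = 0.0572).

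FLS and PR1B, the genes with their own symbol that had the largest ratios against potato, were not called against the other query species. For FLS clone 1 the other means were 4.06 in tomato, 5.89 in tobacco, 6.14 in petunia and 5.64 in N. benthamiana, and the difference was 0.46 (SE 0.31, adjusted p = 0.376). PR1B clone 1 had 4.48, 5.89, 5.35 and 5.64 in the same order, a difference of 0.01 (SE 0.26, adjusted p = 0.988). At the size of these FLS and PR1B values, a rounding step of 0.01 in the ratio moves a value by up to 1 log2 unit. Differences between species are thus poorly resolved there, and the missing calls do not show equal levels. NAC2 had 3.56, 3.22, 3.37 and 2.59, a difference of -0.37 (SE 0.26, adjusted p = 0.389). All 5 species shared the 2 potato extracts, so whatever was particular to those extracts enters all of these ratios.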

How the data were processed

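Potato cDNA arrays were hybridised with leaf RNA of a query species (Cy3) and potato leaf RNA (Cy5). The authors extracted signals with GenePix 5.0, removed spots not found in a channel, with over 30% saturated pixels or under 70 µm across, subtracted local background and applied quantile normalization in limma, as the submitters' processing notes also name (version not given in the sources used here). Each deposited value is minus the log2 of a channel ratio of 1 spot that had been rounded to 2 decimals.

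Duplicate spots of a clone were averaged (905 of 905 pairs sharing a sequence record matched the slide layout found). Gene symbols came from the platform annotation, and 90 clones with several symbols were not named. No coordinates or sequences were used. Fits used lmFit and eBayes of limma 3.58.1 in R 4.3.3 on all 10 arrays, with 1 coefficient per species and Benjamini-Hochberg adjustment over all clones tested. The pepper coefficient was tested against 0 over clones with a value on both pepper arrays, and the contrast with the mean of the 4 other species over those with a value in each species. "Called" means an adjusted p under 0.05. Counts were made in Python 3.11.15 with pandas 2.3.3 and scipy 1.17.1, and figures with matplotlib 3.10.9.

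The text names among clones with a single symbol, the 15 largest called ratios in each direction with 1 clone per gene, the 8 largest called differences in each direction, and members of groups made from the symbols. The members and lists were chosen with earlier results of these data known. Same-numbered arrays share a potato extract per the labels. Their deviations from the species means correlated at 0.409 to 0.657 between pepper and each other species over 7823 clones, so the numbers pair the arrays. The main fits did not use this pairing and treated the arrays as independent. Results that used the pairing are those given with the replicate block. Data were simulated with these missing values over 8854 clones, of which 200 were changed. There 12% of 1.5-fold, 82% of 2-fold and 100% of 4-fold changes against potato were found. In the real data 56.2% of the clones were called, so the adjusted cutoff was less strict and these rates do not apply to it directly. The number of arrays limits the precision. Alternatives covered the block, pepper arrays alone, centring, scaling, spot and clone filters, thresholds and leaving out arrays or species.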

Additional observations from a re-analysis of the deposited data

Results flagged for a closer look

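Differences between pepper and the other query species under the same comparison with potato are listed because the difference itself was tested in limma. In all 1469 clones differed. Among the named clones the ratio was lower in pepper in STUGE51 clone 2 (-3.48) and clone 1 (-3.28), LOC102577576 (-2.50), POTPRO1 (-2.47), LOC102596978 clone 3 (-2.36), LOC102577499 (-2.31), LOC102598951 (-2.19), LOC102596122 clone 1 (-1.73) and LOC102587567 clone 1 (-1.72). It was also lower in METK1 clones 1, 4, 2, 7 and 9 (-1.63, -1.42, -1.17, -1.02 and -0.68), DHAR2 clones 1 and 2 (-1.62 and -1.42), RGGA clones 3, 1 and 2 (-1.46, -1.26 and -1.15), CO (-1.43), THF1 (-1.08), STWRKY8 clones 1 and 2 (-1.06 and -1.02), XIP1-1-BETA (-0.94) and TOM20 (-0.66).

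The ratio was higher in pepper in GBSS clone 2 (2.27), LOC102580877 (1.95), LOC102584296 clone 1 (1.89), LOC102577637 clone 1 (1.88), LOC102596607 clone 1 (1.70), LOC102606132 (1.70), LOC102582373 clone 2 (1.69) and LOC102589404 (1.61). Smaller ones were ARD (1.44), VPE2 clone 1 (1.42), PPO clone 1 (0.99), GAPDH clone 1 (0.91), BCAT1 (0.84), AMYA1 clone 1 (0.69) and PSBR clone 3 (0.64). Groups of 2 arrays are too small for a search for single arrays that stand apart.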

How the results depend on the processing

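Against potato, 5086 clones were called, and the count stayed within 1.5 times of that with the replicate block as a random term (5242), centring (5058), scaling (5239), pepper arrays alone (4438), both spots (4054) or clones with a value on all arrays (4504). It was 2347 beyond 2-fold and ran from 3193 to 3700 with 1 pepper array left out, a fit in which the lone array is assumed to vary like those of other species. Against the other species 1469 differed, and 2804 with the replicate block as a fixed term or 2578 as a random term. With 1 array left out that count ran from 412 (without pepper replicate 1) to 1566. Among 129 named ratios, signs turned in 5, none of them called. METK1 clones 3, 5 and 8 ran from -0.34 to 0.45, -0.38 to 0.49 and -0.16 to 0.27, and PPO clones 1 and 2 from -0.056 to 0.21 and -0.12 to 0.53, with 1 pepper array left out. On the pepper arrays alone 6 of the named ratios lost their call and 1 gained one, and scaling gained 4 calls. The limit on coarse ratios, added after seeing the data, left 5085 calls. The causes were not tested. Missing spots and 2 arrays per species limited what could be found.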
